A study of Mus musculus with 5 samples.

Results

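NEUROD2 bound 423 regions whose midpoint lay in the coding part of a coding exon after the first, out of 32262 regions bound with at least 2 of 3 antibodies. Chromatin came from the cortex of BALB/c mouse embryos at E14.5, a stage at which excitatory neurons are being born. It was precipitated with 3 antibodies against NEUROD2, called ab1 (raised in mouse), ab2 and ab3 (both raised in rabbit), and with 2 antibodies against GFP, a protein these mice do not make, as controls. All animals were of 1 strain, age and tissue with no genotype or treatment contrast, each antibody gave 1 library, and each precipitation pooled embryos of several mothers. The cortex holds progenitors, projection neurons and other cells, and their parts in a peak cannot be told apart in whole tissue. The authors called peaks of ab1 against the mouse GFP library and those of ab2 and ab3 against the same rabbit GFP library. Peaks that shared at least 1 bp were merged, and the midpoint of each region was placed on mm10 with the longest-span transcript of each gene in GENCODE release M21. Members also lay over 1000 bp from the transcription start site (TSS) of any longest-span transcript. The closest member lay 1090 bp from one, and 44 further regions in later coding exons lay within the limit, the farthest of them 961 bp away.

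NEUROD2 is a basic helix-loop-helix transcription factor of cortical excitatory neurons. Factors of this family bind DNA as pairs at E-boxes, short elements of the form CANNTG, and are mostly studied at promoters, introns and intergenic enhancers. A coding exon is read both as codons in the mRNA and, on the chromosome, as DNA that proteins can contact, so a binding element inside it is made of bases that also specify amino acids. The element searched here was the extended E-box, a core of CAGCTG or CATATG, or of CAGATG or its reverse complement CATCTG, followed by G or T or preceded by A or C, read on both strands.

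The following stretches of 60 bp show what such exonic elements look like in the highest-ranked regions. They come from 7 of the 15 highest-ranked regions, each of which held an extended E-box inside the exon and within the central 200 bp. Each is written 5′ to 3′ on the coding strand of the gene, from the GRCm38 (mm10) reference, with the core of the E-box nearest the midpoint in capitals.
Cdkn3, chr14:46767281-46767340, plus strand: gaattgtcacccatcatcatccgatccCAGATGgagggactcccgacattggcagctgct
Cfap61, chr2:146045414-146045473, plus strand: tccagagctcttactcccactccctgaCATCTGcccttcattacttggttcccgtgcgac
Vps41, chr13:18810434-18810493, plus strand: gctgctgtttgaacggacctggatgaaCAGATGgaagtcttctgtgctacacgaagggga
Col16a1, chr4:130079139-130079198, plus strand: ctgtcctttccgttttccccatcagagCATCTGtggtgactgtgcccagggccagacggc
Adamts5, chr16:85887864-85887923, minus strand: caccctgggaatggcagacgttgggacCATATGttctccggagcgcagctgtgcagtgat
Chia1, chr3:106131860-106131919, plus strand: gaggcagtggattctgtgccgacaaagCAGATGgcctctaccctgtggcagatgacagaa
Fam167b, chr4:129577239-129577298, minus strand: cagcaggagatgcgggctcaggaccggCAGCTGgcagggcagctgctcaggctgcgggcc
The printed stretches of Cdkn3, Cfap61, Vps41, Adamts5 and Chia1 lie wholly within the coding exon. Those of Col16a1 and Fam167b begin in the intron before the exon and cross its edge. All 4 cores occur among these 7 elements, with CAGATG in Cdkn3, Vps41 and Chia1. The sequence is that of the reference strain, so variants of BALB/c were not seen.

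The 423 regions lay in 415 genes, of which 407 held 1 region and 8 held 2. Of the regions, 2 lay inside coding exons of 2 genes at once, so that 417 of 17457 genes with later coding bases outside the TSS limit held a region, 2.39% of them. Peaks of all 3 antibodies were present in 83 regions, 19.6% of the members against a background of 22.2% of all regions. Peaks of ab1 and ab2 without ab3 were present in 338. The remaining 2 were a region in Mad1l1, which lacked ab1, and a region in Tecpr2, which lacked ab2. The regions were 372 to 4307 bp wide with a median of 852 bp, whereas the exons that held their midpoints had a median coding length of 184 bp. Later coding bases therefore made up 35.3% of all bases of the regions. The central 200 bp were wholly coding in 107 regions and under 50% coding in 47.

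The peak score is −10 times the log10 of the p-value that the peak caller gave, so a higher score means stronger evidence of enrichment over the GFP library. It does not give the fold enrichment, and it is not scaled between libraries. Strong and weak refer here to this score. The ab1 scores of these regions ran from 50.2 to 3171 with a median of 243.6, and those of ab2 from 50.1 to 3100 with a median of 123.3. In the 85 regions with a peak of ab3 the scores ran from 50.7 to 1226 with a median of 110.5. Most exonic regions were thus of modest score, and a small number reached the top of the scale. Across regions, log10 scores had a Pearson's r of 0.898 between ab1 and ab2 (421 regions), 0.640 between ab1 and ab3 (84 regions) and 0.804 between ab2 and ab3 (84 regions). These values describe regions of the same chromatin source, ab2 and ab3 share a control library, and members without a peak of either antibody are not in them.

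**Figure D1:**
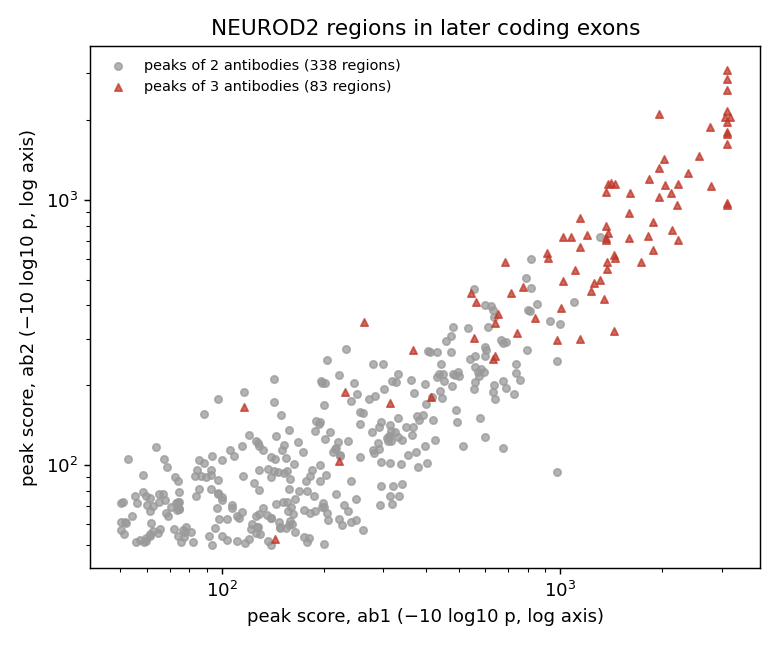
Each point is a region in a later coding exon with peaks of ab1 and ab2, placed by its highest ab1 score (x axis) and ab2 score (y axis), both as −10 log10 p on log axes. Triangles, the 83 regions with peaks of all 3 antibodies, lie mostly at the upper right, and circles, the 338 regions with ab1 and ab2 only, fill the range down to the peak caller's limit of 50.

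The highest-ranked exonic regions lay in genes of varied function. The region of rank 1 lay in coding exon 6 of 12 of Man1c1, a mannosidase of the Golgi that trims N-glycans, with scores of 3100 for ab1, 3100 for ab2 and 1226 for ab3. Next came coding exon 5 of 8 of Cdkn3, a phosphatase that acts on cyclin-dependent kinases, with scores of 3100, 2865 and 734.9. Coding exon 16 of 26 of Cfap61, a protein of cilia and flagella, followed with scores of 3100, 2608 and 623.5. All 3 regions stood at or close to the top of the scale in ab1 and ab2 and above every other exonic region in ab3. The ab1 score of 3100 was shared by 10 of the 423 regions, so the order of the strongest is not resolved for that antibody.

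The long coding exon 9 of 22 of Brca1, a DNA repair protein, held a region with scores of 3100, 2170 and 476.3. Coding exon 8 of 29 of Vps41, a subunit of the HOPS complex in transport to lysosomes, held a region with scores of 3100, 1964 and 303.6. The last coding exon of Nfasc, which encodes the adhesion molecule neurofascin of axon initial segments and nodes, held one with 3065, 2051 and 358.8. Col16a1, a collagen, Dock4, an activator of the GTPase Rac, and Adamts5, a protease that cleaves aggrecan, had ab1 scores of 3171, 3100 and 3100 with ab3 scores of 183.8, 286.1 and 233.3. The serine protease gene Prss36 had scores of 3100, 1779 and 308.2. Chia1, an acidic chitinase, had 1961, 2104 and 354.1. Scores follow the library as well as the region, so only values of the same antibody can be compared between these genes. P3h2, a prolyl hydroxylase of collagens, and Fam167b had ab1 scores of 2571 and 2224.

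**Figure D2:**
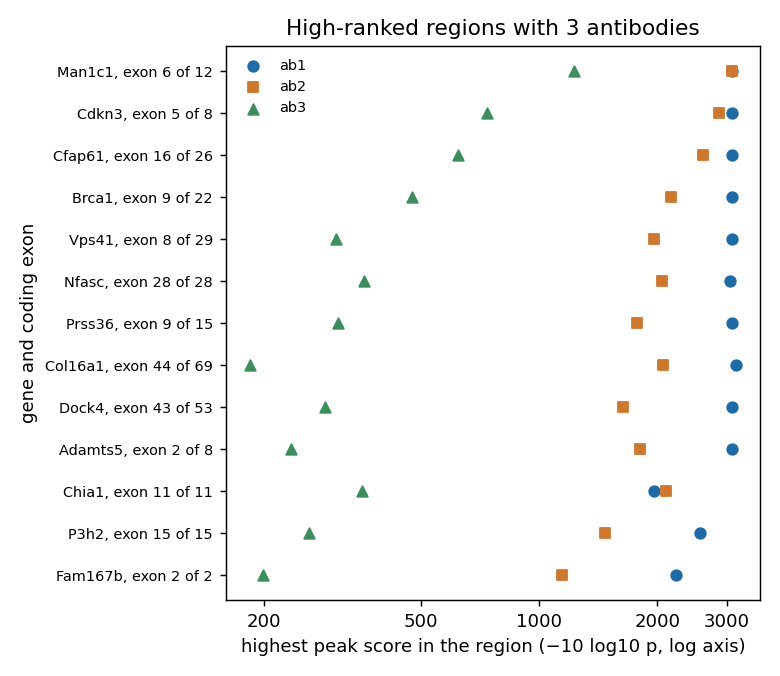
Of the 15 exonic regions with peaks of 3 antibodies and the lowest mean rank of score, 13 are listed by gene and coding exon (y axis), with the highest peak score of each antibody in the region as −10 log10 p on a log axis (x axis). Circles (ab1) lie between 1961 and 3171 and triangles (ab3) between 183.8 and 1226, and squares stand for ab2. Scores are not scaled between antibodies.

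Among regions without a peak of ab3, the highest-ranked lay in coding exon 51 of 53 of the same Dock4 gene, with scores of 1311 for ab1 and 723 for ab2. It was followed by Frmpd1 (1099 and 412.8), Scrt2, a zinc finger repressor of differentiating neurons (816 and 599.4), the prolactin gene Prl (819.5 and 466) and Adcy10, the soluble adenylyl cyclase (850.3 and 404.7). At the other end, the region with the lowest ab1 score lay in Gfra2, a receptor for neurturin, at 50.2 for ab1 and 72.1 for ab2. The narrowest region, of 372 bp in Asb15, had scores of 139.5 and 90.3, and the widest, of 4307 bp in the last coding exon of Sobp, had 2376, 1265 and 138.8. Both of these held an extended E-box inside the exon near the midpoint.

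The 8 genes with 2 exonic regions were Dock4, Mef2c, Ptprn, Pard3, Slf1, Ccdc88b, Maml1 and Pcsk5. In Mef2c, a transcription factor of cortical neurons, adjacent coding exons 8 and 9 of 9 were bound, exon 8 with scores of 441.7 for ab1 and 189.5 for ab2 and exon 9 with 262.5, 346.8 and 63.4 for ab1, ab2 and ab3. In Pard3, a polarity protein, coding exon 9 of 25 had scores of 431.2 and 267, and coding exon 24 had 61.2 and 54.7. The 2 regions of a gene thus differed in score in Dock4 and Pard3. They were both weak in Pcsk5, a proprotein convertase (59.8 and 51.6 in coding exon 16 of 38, 55.7 and 51.2 in exon 7), and in Maml1, a coactivator of Notch signalling (100.1 and 104.3 in exon 3 of 5, 98.2 and 62.7 in exon 2).

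E-boxes were concentrated at the centre of the exonic regions. Of the 423 regions, 284 had an extended E-box within the 200 bp around the midpoint (67.1%, 95% Wilson interval 62.5 to 71.4), beside 59.6% of all regions. In flanks of 200 bp, placed 1000 bp outside the same regions, the share was 26.2% on the side of lower coordinates and 22.9% on the other side. The centre exceeded both flanks by McNemar's exact test, two-sided, with p = 1.54e-30 and p = 3.72e-36. Of the regions, 163 held 1 E-box in the central window, 96 held 2 and 25 held 3 or more. Anywhere in the region, 388 (91.7%) held an E-box and 35 held none. The profile of E-box frequency peaked at the midpoint in exonic and in intronic regions.

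**Figure D3:**
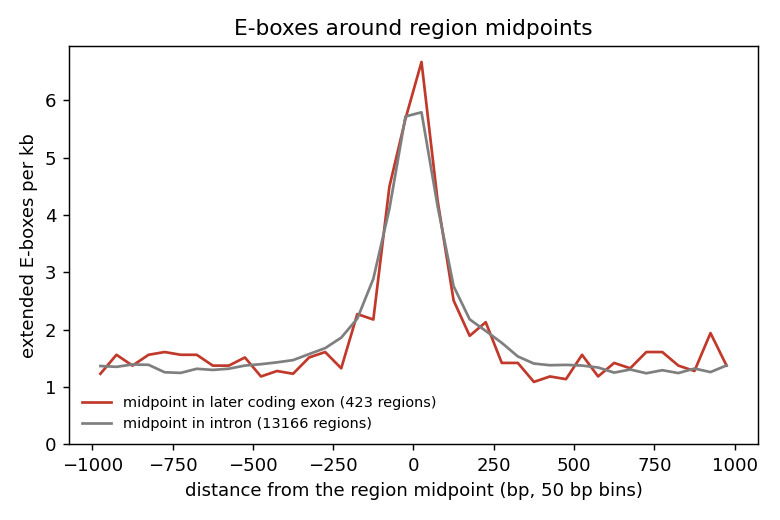
The lines give extended E-boxes per kb (y axis) in bins of 50 bp by distance from the region midpoint (x axis, lower coordinates to the left), for the 423 exonic and 13166 intronic regions. Both lines peak at the midpoint and fall to a level between 1 and 2 per kb beyond about 250 bp.

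The share with a central E-box did not differ detectably from that of other distal regions. It was 64.5% in the 13166 regions with a midpoint in an intron, a difference of 2.60 percentage points (95% Newcombe interval −2.08 to 6.98, two-sided Fisher's exact test, p = 0.2784, adjusted p = 0.3182 over 16 tests). Against 67.5% of the 11417 intergenic regions the difference was −0.34 points (−5.03 to 4.05, Fisher's exact test, adjusted p = 0.8742). Taking each antibody with its own exonic peaks, 64.8% (ab1), 65.1% (ab2) and 72.7% (ab3) had a central E-box, a mean of 67.5 ± 4.5% (SD, n = 3) against 23.5 ± 0.99% in the lower flanks. Exonic regions with 3 antibodies had a central E-box in 67.5% and those with 2 antibodies in 67.1% (Fisher's exact test, p = 1).

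**Figure D4:**
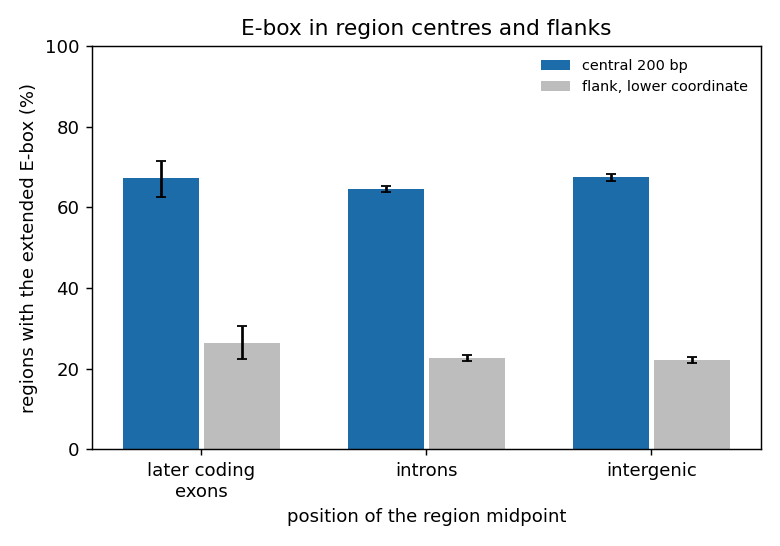
Bars give the percentage of regions with an extended E-box (y axis) in the central 200 bp (blue) and in 200 bp starting 1000 bp beyond the lower end (grey) for each position of the midpoint (x axis), with 95% Wilson intervals. The blue bars stand at 67.1%, 64.5% and 67.5%, and the exonic grey bar at 26.2%.

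The composition of the E-boxes differed from that of intronic regions. A CAGCTG core was present in the centre of 159 exonic regions (37.6%) against 24.8% of intronic regions, a difference of 12.8 points (8.27 to 17.6, adjusted p = 1.98e-08, Fisher's exact test, over 6 tests). A CATATG core was present in 16 (3.78%) against 11.6%, a difference of −7.78 points (−9.32 to −5.44, Fisher's exact test, adjusted p = 4.81e-08). For CAGATG with its reverse complement CATCTG, the shares were 41.1% and 42.8% (difference −1.68 points, −6.35 to 3.14, Fisher's exact test, adjusted p = 0.5164). In the exonic regions CAGCTG rose from 8.51% in the lower flank to 37.6% in the centre, and CAGATG or CATCTG from 13.9% to 41.1%. CATATG did not differ detectably from its flanks, with 3.78% in the centre against 6.15% and 3.31% (McNemar's exact test, p = 0.1641 and p = 0.8450). Median GC content was 57% in the centres and 48.5% in the lower flanks, so centre and flank also differ in composition. Among all other E-boxes in later coding bases CATATG made up 7.05% and CAGCTG 43.6%. Inside the exons of the bound regions these shares were 2.77% and 51.5% of 361 E-boxes. They are shares of all E-boxes, so the share of a core also falls where other cores are more frequent. The CATATG core printed for Adamts5 belongs to a region with scores of 3100, 1801 and 233.3. That region held 2 extended E-boxes in its centre, and the other, with a CAGCTG core, follows in the printed stretch. The scores do not show which of them was bound.

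In most regions with a central E-box, an E-box lay within the exon. In 242 regions (57.2%) an E-box lay inside the coding exon and the central window, and in 44 the central window held E-boxes but none wholly inside the exon that contained the midpoint. Of these 44, 7 had an E-box that crosses the edge of the exon, as in Tbr1, and 37 had E-boxes only outside it. Among the 242 are 2 regions, in Elmo2 and Acrbp, whose E-box ends at the edge of the window, so that the base beside the core lay outside it and they were not counted among the 284. Within the same central windows, coding bases held 5.85 E-boxes per kb (95% Poisson interval 5.26 to 6.48) and intronic bases 3.60 (2.82 to 4.51). Coding bases lay closer to the midpoint than intronic bases by the choice of the regions, and E-boxes peak there, so these rates do not compare exon with intron. All other later coding bases held 1.74 per kb and all other intronic bases 1.24 per kb. The bound coding windows were therefore 3.35 times as dense in E-boxes as other coding sequence (exact conditional test of 2 rates, p = 9.29e-83), and the intronic bases beside the bound exons 2.91 times as dense as other introns (p = 4.07e-15).

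E-boxes in bound exons were more often in register with the codons. Of 361 elements, 50.1% had the first base of the core at codon position 1, so that the core filled a pair of codons, against 42.0% of 41905 elements in other later coding bases (Fisher's exact test, adjusted p = 0.0034 over 3 positions). Codon position 2 was used by 29.1% against 38.8% (Fisher's exact test, adjusted p = 0.00042) and position 3 by 20.8% against 19.2% (adjusted p = 0.4210). The cores themselves differ in register, and within single cores no position passed the threshold after adjustment over 9 tests. The shares at position 1 were 57.0% against 54.0% for CAGCTG (Fisher's exact test, adjusted p = 0.5911), 52.6% against 39.8% for CAGATG (adjusted p = 0.0782) and 31.4% against 24.7% for CATCTG (adjusted p = 0.3784). Among the printed elements, Fam167b had its core at position 1, Cdkn3, Cfap61 and Chia1 at position 2 and Vps41, Col16a1 and Adamts5 at position 3.

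Wide regions less often had the E-box at the midpoint. The share with a central E-box was 78.3% of the 212 regions at or under the median width and 55.9% of the 211 wider ones (Fisher's exact test, p = 1.02e-06), and intronic regions split at the same width gave 76.8% and 51.0%. All 26 regions of at least 2000 bp held an E-box somewhere, but only 12 of them (46.2%) in the central window. Among the 15 highest-ranked, Man1c1, Brca1, Nfasc, Prss36, Dock4 and P3h2 were all wider than the median, with 9, 3, 4, 5, 6 and 1 E-boxes in the region and none in the central 200 bp. The nearest E-box lay in an intron in Man1c1, Nfasc, Dock4 and P3h2, at 132, 497, 247 and 123 bp from the midpoint, and in coding sequence in Brca1 and Prss36, at 127 and −345 bp, where a minus sign stands for lower coordinates. For such regions the midpoint does not show whether the contacted bases are coding. Peaks of all 3 antibodies were present in 8.49% of the narrower and 30.8% of the wider regions. A region spans all of its merged peaks, so the peak of a further antibody can itself widen it.

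Relative to the sequence available, later coding exons held 16.6 regions per Mb (95% Poisson interval 15.03 to 18.23) over 25.5 Mb, introns 14.3 and intergenic sequence 8.12. The ratio to introns was 1.16 (1.05 to 1.28, exact conditional test of 2 rates, p = 0.0030), and to intergenic sequence 2.04 (1.85 to 2.25, p = 1.60e-38). The comparison with introns turned when repeats were left out. Of later coding bases 4.61% are soft-masked as repeats in the reference, against 28.9% of intronic bases, and over the other bases the densities were 16.8 and 18.1 per Mb, a ratio of 0.92 (exact conditional test, p = 0.1204). Intergenic bases are soft-masked to 43.2%, and over the other bases their density was 12.8 per Mb, which lowered the ratio to 1.31 (1.18 to 1.44, same exact test, p = 3.44e-07). By the same exact test, the ratio was 0.94 without ab1 (p = 0.6268), 1.01 without ab2 (p = 0.9570) and 0.95 for regions with all 3 antibodies (p = 0.6647). These settings all require a peak of ab3 and hold 83, 89 and 83 exonic regions, so they largely share regions and are not separate checks. With each antibody's own peaks it was 1.26 (ab1), 1.17 (ab2) and 1.09 (ab3), and the exonic share of peaks was 1.36 ± 0.054% (SD, n = 3).

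**Figure D5:**
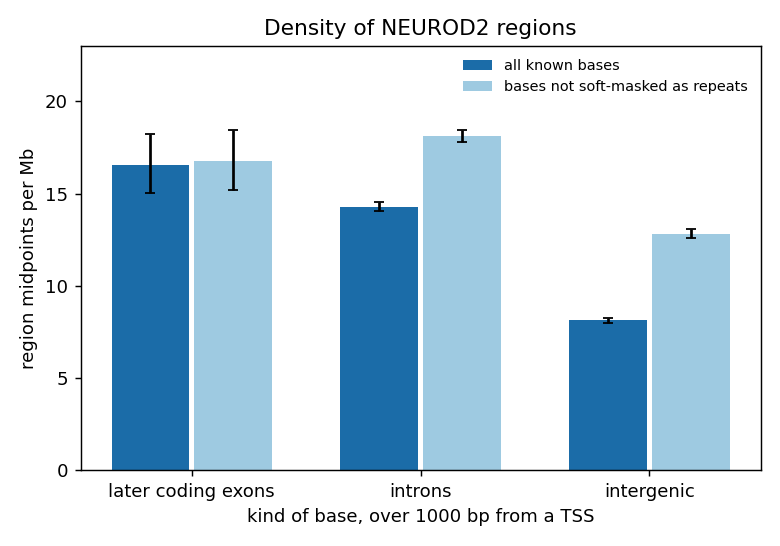
Bars give region midpoints per Mb (y axis) by kind of base over 1000 bp from a TSS (x axis), for all known bases (dark) and for bases not soft-masked as repeats (light), with 95% Poisson intervals. Later coding exons stand above introns for all bases (16.6 against 14.3) and below them, with overlapping intervals, for bases that are not soft-masked (16.8 against 18.1).

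Within genes, last coding exons held 92 regions at 21.2 per Mb and internal later exons 331 at 15.6 per Mb, a ratio of 1.35 (1.06 to 1.71, exact conditional test, p = 0.0116). By the same exact test, the ratio was 1.45 without ab1 (p = 0.1867) and 1.32 without ab2 (p = 0.2615), with far fewer regions. Densities by exon length were 13.5 per Mb under 150 bp, 18.6 from 150 to under 300 bp, 22.8 from 300 to under 1000 bp and 12.6 in exons of 1000 bp or more, so there was no steady rise with length. Examples of last coding exons were those of Nfasc, Chia1, P3h2, Scrt2 and Sobp, and also that of Grm5, a metabotropic glutamate receptor, with scores of 1435, 618.1 and 96.2.

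In score the exonic regions stood slightly below intronic ones in ab2. The ab2 score was above the median of all regions in 44.5% of exonic and 51.0% of intronic regions (difference −6.44 points, −11.2 to −1.59, Fisher's exact test, adjusted p = 0.0230), with medians of 123.3 and 143.9. For ab1 the shares were 47.2% and 51.3% (−8.96 to 0.67 points, Fisher's exact test, adjusted p = 0.1313), and for ab3 61.2% and 51.6% (−1.16 to 19.4 points, adjusted p = 0.1313). Peaks of all 3 antibodies were present in 19.6% against 24.0% of intronic regions (difference −4.42 points, −8.00 to −0.30, Fisher's exact test, p = 0.0370, adjusted p = 0.0657), and against 24.9% of intergenic regions (−5.27 points, adjusted p = 0.0270). With peaks of a score of at least 100 only, the difference from introns was 2.69 points in the other direction (Fisher's exact test, p = 0.2628).

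GC content at the centre was higher than in intronic regions. The median GC content of the central 200 bp was 57% against 50% in intronic regions, and 78.7% against 42.6% of regions lay above the median of all regions (adjusted p = 9.48e-50, Fisher's exact test). Later coding bases as a whole have 51.0% GC and introns 42.4%. Within 1000 bp of the TSS of any annotated transcript lay 92 exonic regions (21.7%), beside 19.9% of all regions and 7.91% of intronic ones (exonic against intronic, Fisher's exact test, adjusted p = 1.58e-17). All regions include those close to a longest-span TSS, which the exonic and intronic sets leave out, so the share of all regions is over an unlike set. Of the bases themselves, 17.9% of later coding and 4.93% of intronic bases lie that close to an annotated TSS. Over those bases the density was 20.2 regions per Mb in later coding exons and 22.9 in introns, beside 16.6 and 14.3 over all bases of each kind. For 89 of the 92 the closest such TSS belonged to the same gene, 28 of them to protein-coding, 39 to retained-intron, 18 to processed and 4 to nonsense-mediated decay transcripts. Cfap61 lay 40 bp from the start of a shorter protein-coding transcript, Prss36 112 bp from a retained-intron transcript, and Col16a1, Fam167b and Brca1 178, 235 and 755 bp from processed transcripts. A central E-box was present in 62.0% of these 92 regions and in 68.6% of the 331 regions farther from every TSS (Fisher's exact test, p = 0.2591). Over those 331 alone, the E-box share exceeded the lower flank by 44.7 points (McNemar's exact test, p = 2.01e-28).

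Of the 415 genes with a bound exon, 228 (54.9%) also held an intronic region, beside 22.7% of all 17457 eligible genes, and 133 (32.05%) a region within 1000 bp of their own TSS, beside 23.3%. The latter share was 33.3% of the 3740 genes with an intronic but no exonic region. The genes with a bound exon had a median span of 57.5 kb and 2175 later coding bases, and the 3740 genes 82.6 kb and 1468 bases.

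Among lists of genes with known roles, that of layer identity and neuronal transcription factors had the largest share with a bound later exon, 7 of 27 eligible genes (25.9%), beside 2.39% of all genes. Tbr1, a T-box factor of deep layers, had scores of 792.1 for ab1 and 506.4 for ab2 in coding exon 4 of 6. Besides Mef2c, described above, the list members with a bound exon included Nfib, Cux2, Foxp2 and Tle4. Of these 27 genes 26 held a region of any kind in their span (96.3% against 36% of all genes). The Cux2 region lay 335 bp from the start of a shorter transcript of the gene, and those of Nfib and Tbr1 lay 1059 and 1073 bp from one.

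The list of Reelin signalling and migration genes held 1 of 22 (4.55%), Reln, which encodes the extracellular cue for migrating neurons. Its region in coding exon 44 of 65 had scores of 2233, 703.6 and 88.1 and an exonic E-box 81 bp from the midpoint. Axon guidance held 5 of 58 (8.62%), among them the ligand Slit1 (999.9 for ab1 and 341.4 for ab2), the receptor Ephb1 (562.9, 411.6 and 60.6) and the Slit receptor Robo1 (97.4 and 78.1). Cell adhesion held 4 of 51 (7.84%), with Nfasc, the seven-pass cadherin Celsr2 (545.4, 443.8 and 68.6) and Cntnap2 (412.9 and 266.5) leading. The Celsr2 region lay 594 bp from the start of another transcript. Guidance and adhesion genes included both strong exonic regions and regions near the peak caller's limit.

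Synapse and channel genes held 6 of 66 (9.09%), led by Grm5, the kainate receptor subunit Grik2 (678.8 and 116.1) and the presynaptic scaffold Bsn (483.1 and 220.8). Cytoskeleton and motor genes held 5 of 44 (11.4%), led by the kinesin Kif26a (577 and 150.5), the microtubule crosslinker Mtcl1 (314.6, 171.8 and 70.4) and the linker protein Dst (256.3 and 142.7). Chromatin and coregulator genes held 5 of 42 (11.9%), with Smarca2, an ATPase of SWI/SNF complexes (1814, 731.4 and 187.7), Chd3, an ATPase of NuRD complexes (1592, 718 and 128.1), and the corepressor Bcor (216.5 and 115.7) leading. Both ATPase genes held an E-box inside the exon. The regions of Chd3, Dst and Bsn lay 448, 41 and 718 bp from the start of another transcript of the gene.

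Radial glia and progenitor genes held 3 of 24 (12.5%), namely Gli3, a zinc finger factor of Hedgehog signalling (1106, 545.5 and 184.2), Sox9 (731.6 and 185.7) and the Notch effector Hes1 (58.6 and 91.8). The Gli3 region held 2 central E-boxes within the exon, while those of Sox9 and Hes1 held none. The Hes1 region lay 739 bp from the start of another transcript. Subpallial and interneuron identity genes, which mark cells that dissected cortex could also hold, had 0 of 21 eligible genes with a bound later exon, and ribosomal protein genes 0 of 27. At the share of all genes, lists of these sizes would hold 0.50 and 0.65 such genes, so a lack of binding could not be detected. Later coding sequence differed between the lists, from 8.74 kb in all for the ribosomal proteins and 20.4 kb for the subpallial list to 53.5 kb for the layer and neuronal factor list and 237.3 kb for the chromatin list. Per Mb of that sequence, the layer and neuronal factor list held 149.4 exonic regions, the other lists with any held between 21.1 (chromatin) and 38.1 (radial glia), and all genes held 16.5. A region of any kind in the span was present in 54.5% (Reelin and migration) to 90.9% (synapse) of the genes of these other lists, in 4 subpallial genes (19.05%) and in 8 ribosomal genes (29.6%), beside 36% of all genes.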

How the data were processed

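ChIP-Seq peak lists of 3 NEUROD2 libraries, 1 per antibody, were used, and the GFP libraries were used only by the authors as controls. The authors mapped reads to mm10 with Bowtie, dropped PCR duplicates and reads that mapped more than once, and ran MACS on each library. The deposited score of each peak is −10 times log10 of its p-value, with a lowest value of 50. It moves with library depth, which peak lists do not give, and shares and densities carry counting error only. Peaks numbered 51841 (ab1), 35310 (ab2) and 7470 (ab3).

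Peaks sharing at least 1 bp were merged, regions with at least 2 antibodies were kept, and midpoints were placed on GRCm38 with GENCODE M21. Of the 32262 regions, 32261 lie on chromosomes 1 to 19, X and Y and were used. Intronic regions had the midpoint in an intron of a protein-coding longest-span transcript and in no exon of one, and intergenic regions in no longest-span transcript, both over 1000 bp from a TSS. Tests were McNemar's, Fisher's and the exact conditional test of 2 rates, all two-sided with a threshold of 0.05, with Benjamini-Hochberg adjustment within each family. Since each antibody has 1 library, p-values compare regions of the same libraries and not samples.

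Members and gene lists were chosen with earlier results of these data known. Genes named are the 15 regions with 3 antibodies and the 5 with 2 antibodies of lowest mean rank, genes with 2 regions, up to 3 genes a list by ab1 score, and the regions with the lowest ab1 score or extreme width. The other list members and Mad1l1 and Tecpr2 were named after their values were seen. A small number of regions that the rule would name are not reported here. Python 3.11.15, numpy 2.4.6, scipy 1.17.1 and matplotlib 3.10.9 were used, and the calculations were first tested on simulated data. Alternatives were a score of at least 100, an overlap of 50% of the shorter peak, all 3 antibodies, the highest peak's midpoint, each antibody left out, other TSS distances and sets, another choice of transcript, other windows and other motifs.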

Additional observations from a re-analysis of the deposited data

How the results depend on the processing

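The excess of E-boxes in the centre over the flank (40.9 points) kept its direction and significance under all alternatives but CATATG alone, where it was −2.36 points (McNemar's exact test, p = 0.1641), and ranged from 36.1 to 40.7 with 1 antibody left out. For CANNTG the excess was smaller, at 17.3 points, and 68.3% of the lower flanks also held that form. The number of exonic regions was 243 with a score of at least 100 and 83 with all 3 antibodies, and 83 to 420 with 1 antibody left out, 83 without ab1 and 89 without ab2. Leaving out ab1 or ab2 requires a peak of ab3, so these settings largely share regions with that of all 3 antibodies. The density ratio to introns was 1.05 (exact conditional test, p = 0.4645) with a score of at least 100, 0.95 with all 3 antibodies and 0.92 over bases that are not soft-masked, an alternative chosen after seeing the data, and 0.94 to 1.15 with 1 antibody left out. The ratio of last to internal exons was 1.32 to 1.45 with 1 antibody left out. The difference in E-box share from introns (2.60 points) was 5.94 (Fisher's exact test, p = 0.05885) with a score of at least 100, 5.005 with all 3 antibodies, −0.20 at the highest peak's midpoint, −0.47 with 400 bp windows, −2.53 for CANNTG, −1.68 for CAGATG or CATCTG, −7.78 for CATATG and 12.8 for CAGCTG, and −2.06 to 4.05 with 1 antibody left out. The difference in the share with all 3 antibodies (−4.42 points, Fisher's exact test, unadjusted p) was 2.69 with a score of at least 100, −3.17 at the highest peak's midpoint (p = 0.1343) and −3.77 with the longest coding transcript (p = 0.0646), and it has no value with an antibody left out or all 3 required. The excess at codon position 1 (8.09 points) was 2.97 within CAGCTG, 12.8 within CAGATG and 6.74 within CATCTG, splits chosen after seeing the data, as were those by width and by every annotated TSS. Where fewer regions or E-boxes enter, the tests have less power. Other causes of these changes were not tested. No paired analysis was possible because the replicate numbers that NEUROD2 and GFP libraries share belong to different antibodies and no GFP peak list was analysed here. Every value rests on called peaks, so binding below the peak caller's limit is not seen.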
